A study of Mus musculus with 33 samples.

Results

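Transcripts of 10 genes that receive, relay and restrain signals of the interleukin 6 (IL6) cytokine family were followed in the mouse hypothalamus after ovariectomy (OVX), the surgical removal of the ovaries. They are 3 receptor genes (*Il6st*, *Il6ra* and *Lifr*), 3 genes of the signal relay (*Jak1*, *Jak2* and *Stat3*) and 4 genes that the relay can induce (*Socs2*, *Socs3*, *Cish* and *Bcl3*). The genes were listed by name, each is 1 of the 41565 named entries of the deposited table, and all 10 lay above the limit for testing in both regions. The study collected the posterior hypothalamus (PH), with metabolic and reproductive centers, and the preoptic area (POA), with thermoregulatory neurons, and measured mRNA by bulk RNA-seq. All animals were WT female mice. The intact group was euthanized in diestrus without OVX, and the other groups 14 days or 4 months after bilateral OVX, which was done at 3 to 4 months of age with a pain-relieving treatment (Buprenex SR and meloxicam) on the day of surgery. The PH gave 4 intact libraries, 6 at 14 days and 6 at 4 months, and the POA gave 5, 6 and 6. Sham is the word in the titles of the intact libraries, but a further label and the study's methods describe intact mice. For 1 POA library the group label reads only 14, and its title placed it at 14 days. No intact group was as old as the 4-month group, so time without ovaries and age cannot be told apart. Both regions were taken from the same set of females, but the labels do not say which libraries share an animal, and *P* values measure the spread between libraries.

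IL6, LIF, oncostatin M and related cytokines bind a specific receptor subunit and the shared subunit gp130, encoded by *Il6st*. The receptor complex activates Janus kinases, which phosphorylate STAT3, and STAT3 then enters the nucleus and induces target genes, among them *Socs3*, whose product blocks gp130 and the kinases. In the hypothalamus, JAK2 and STAT3 also carry the leptin signal, in microglia and astrocytes STAT3 takes part in reactive states, and IL6 acts on preoptic circuits in fever. Phosphorylation of STAT3, the usual measure of pathway activity, is not seen by RNA-seq.

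Values are the deposited normalized signal on a linear scale, in which genes without measurable expression sit at a floor of 22.1, so that changes of weak genes are compressed. Fold changes are log2 values from limma with the first surrogate variable (SV1) as covariate, and *P* values were adjusted over all genes tested in a region. Sequencing depth is not known from such values. All groups were split over 2 batches. In the POA, SV1 separated the batches, from 0.186 to 0.352 in batch 1 and from -0.322 to -0.125 in batch 2. In the PH, SV1 was highest in 14-day replicate 5, at 0.785, with all other libraries at or below 0.194, and this library also had a neuron marker sum of 387497 against 198116 to 259847 in the other 15 PH libraries. Of 11 hypothalamic marker genes, 9 lay above the limit in all 33 libraries, the exceptions being *Hcrt* and *Kiss1*, as did all listed markers of neurons, astrocytes, microglia, oligodendrocytes, endothelial and mural cells. None of 5 neutrophil markers did so.

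None of the 10 genes was called, at an adjusted *P* under 0.05, in any of the comparisons. In the PH, 0 of the 10 passed at 14 days, where 0% of all genes tested were called, and 0 at 4 months, where 0.0318% were called. In the POA, 0 passed at 14 days against 0.00468% of all genes, and 0 at 4 months against 0.0936%. For 4 months versus 14 days, 0 passed in the PH, against 0.00909% of all genes, and 0 in the POA, against 0.0281%. At an unadjusted *P* under 0.05, *Stat3* was the 1 member past that level in the PH at 14 days, against 3.04% of all genes tested, and *Stat3* and *Socs2* were the 2 at 4 months, against 6.07%. In the POA it was *Il6ra* at 14 days, against 6.14% of all genes, and *Jak2* and *Bcl3* at 4 months, against 8.5%. For 4 months versus 14 days, 0 members were past it in either region, beside 4.09% of all PH genes and 5.11% of all POA genes. The 10 genes had a median log2 fold change of 0.03 at 14 days and 0.08 at 4 months for the PH, and of 0.00 and 0.01 for the POA, beside medians of all genes from -0.01 to 0.00.

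The precision differed between members. In the 4 comparisons with the intact group, the standard error of a member lay between 0.05 (*Jak2* in the POA) and 0.24 (*Bcl3* in the PH), on the log2 scale. The lowest bound of any member's 95% interval in these comparisons was -0.56 (*Cish*, PH at 14 days) and the highest was 0.87 (*Bcl3*, POA at 4 months).

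**Figure D1:**
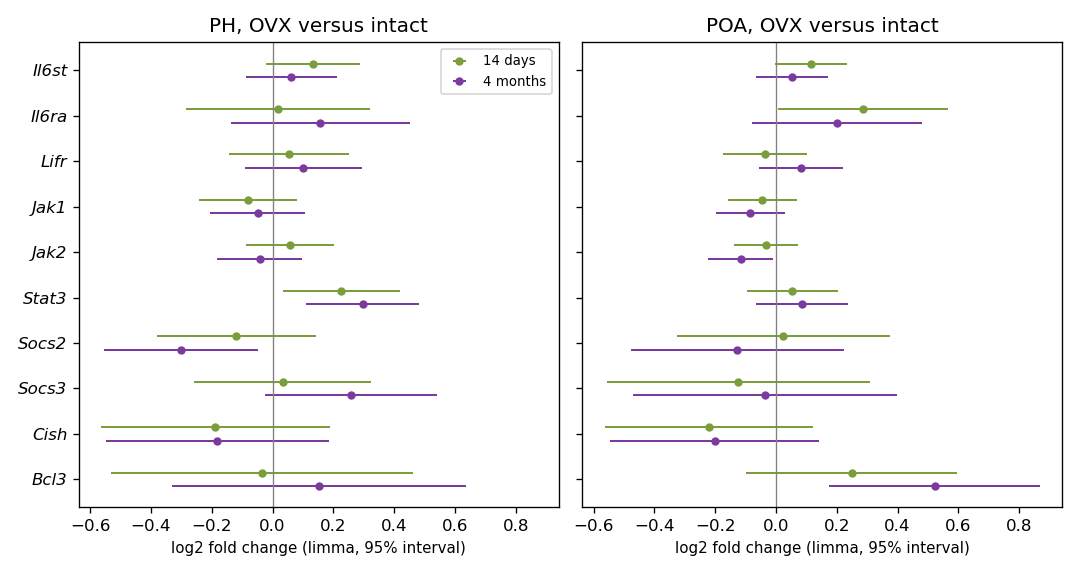
Log2 fold changes (x axis; limma, SV1 as covariate) of the 10 genes (y axis) after OVX versus intact, in the PH (left) and the POA (right), with points as estimates, bars as 95% intervals and color for the time after OVX. The intervals lie above 0 for *Stat3* in the PH at both times, for *Il6ra* in the POA at 14 days and for *Bcl3* in the POA at 4 months, and below 0 for *Socs2* in the PH and *Jak2* in the POA at 4 months.

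*Il6st* (chr13:112600604-112646620, plus strand, GRCm39, as for the other gene positions) encodes gp130, the signaling subunit that most receptors of the family share. In the 4 intact PH libraries it measured 6423, 7288, 7304 and 8038. After 14 days the PH values ran from 7440 to 8059 with a median of 7950, and after 4 months from 6940 to 8344 with a median of 7618. The lowest library of the PH was an intact one, but the intact range reached into both OVX groups. In the POA, the intact libraries measured 7384, 7203, 7546, 7449 and 6810, the 14-day libraries ran from 7119 to 8931 (median 7882), and the 4-month libraries from 7077 to 8210 (median 7484). Here 5 of 6 libraries at 14 days and 3 of 6 at 4 months lay above every intact one. The log2 fold changes of *Il6st* versus intact were between 0.05 and 0.13, and no 95% interval extended beyond 0.29.

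*Il6ra* (chr3:89771366-89820719, minus strand) encodes the subunit that binds IL6 itself. In the PH, the intact libraries measured 282, 333, 354 and 365, the 14-day libraries 298 to 470 (median 327) and the 4-month libraries 271 to 462 (median 371), and these groups overlapped. In the POA, the intact libraries measured 317, 358, 359, 242 and 325, the 14-day libraries ran from 265 to 525 (median 392), and the 4-month libraries from 329 to 402 (median 351). The 14-day group held the highest POA libraries, 4 of 6 above every intact one, but also 1 library near the lowest intact value. The fitted difference at 14 days was 0.29 on the log2 scale (SE 0.13, limma adjusted *P* = 0.806, n = 6 versus 5). It was 0.46 in batch 2 alone and 0.04 in batch 1 alone. Without intact replicate 4, the lowest library, the difference was 0.18. At 4 months the POA difference was 0.20 (95% interval -0.08 to 0.48).

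*Lifr* (chr15:7120095-7226970, plus strand) encodes the receptor subunit for LIF, which pairs with gp130. Its intact PH values were 1791, 2058, 2081 and 2164, beside 1895 to 2376 (median 2019) at 14 days and 1807 to 2596 (median 2176) at 4 months. Its intact POA libraries lay close together, at 2022, 2041, 1998, 1986 and 2069, while the 14-day libraries ran from 1646 to 2409 (median 2037) and the 4-month libraries from 1832 to 2487 (median 2263). At 14 days, 3 POA libraries lay above and 3 below the whole intact range, so the spread and not the level set this group apart. The 3 above were the batch 1 libraries, at 2160, 2172 and 2409, and the 3 below were those of batch 2, at 1914, 1646 and 1900. The log2 fold changes of *Lifr* versus intact lay between -0.04 and 0.10.

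**Figure D2:**
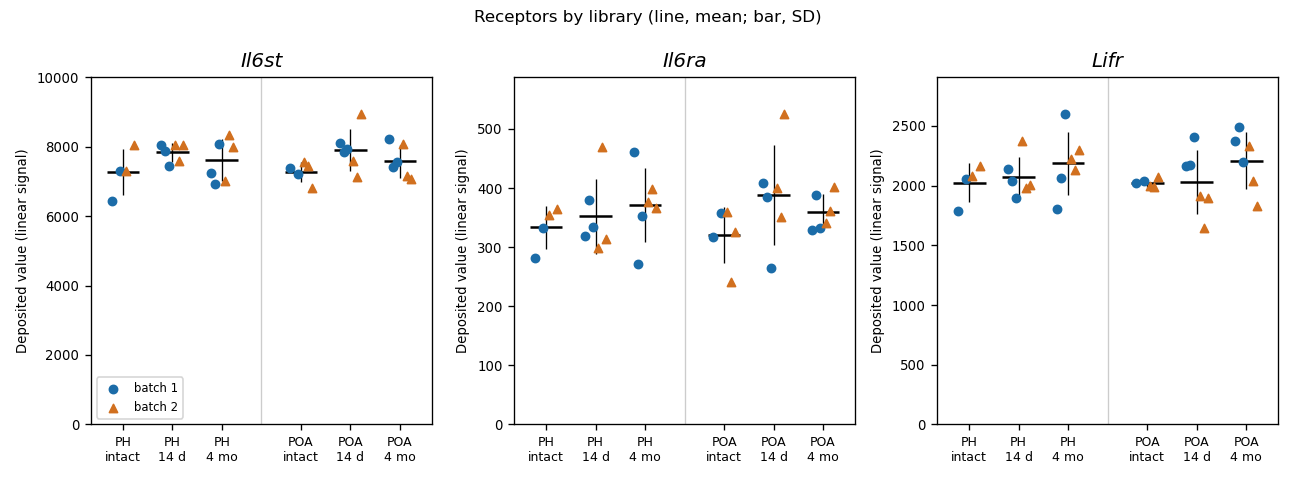
Deposited values (y axis, linear signal from 0) of *Il6st*, *Il6ra* and *Lifr* in each library by region and group (x axis), with circles for batch 1, triangles for batch 2, lines for group means and bars for SD. The groups overlap in every panel, and the POA *Lifr* values at 14 days split by batch around the narrow intact range of 1986 to 2069.

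*Jak1* (chr4:101008838-101122487, minus strand) and *Jak2* (chr19:29228677-29290505, plus strand) encode the kinases bound to gp130, and JAK2 also serves the receptors for leptin, growth hormone and prolactin. *Jak1* measured 7911, 7687, 8478 and 7853 in the intact PH, 6451 to 8967 (median 7928) at 14 days and 6826 to 8672 (median 7670) at 4 months. In the POA it measured 8201, 9119, 6908, 7508 and 6618 in the intact group, 6191 to 9710 (median 7723) at 14 days and 6229 to 8375 (median 7620) at 4 months. The groups overlapped in both regions. All 4 log2 fold changes of *Jak1* versus intact were below 0, from -0.08 to -0.04, and all 95% intervals included 0. In the POA at 14 days that sign came with the SV1 term, since the mean log2 value was 12.90 in both groups and the median was higher at 14 days.

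*Jak2* measured 2585, 2531, 2198 and 2165 in the intact PH, 2239 to 2956 (median 2593) at 14 days and 1943 to 2511 (median 2265) at 4 months. Its intact POA libraries measured 2748, 2595, 2289, 2158 and 2230, the 14-day libraries 1990 to 2767 (median 2431), and the 4-month libraries 1999 to 2691 (median 2197). At 4 months in the POA 2 of 6 libraries lay below every intact one and the others were within the intact range. The difference was -0.12 (SE 0.05, limma adjusted *P* = 0.529, n = 6 versus 5). It was -0.06 when the model held no covariate, -0.09 in batch 1 alone and -0.09 in batch 2 alone. The *Jak2* difference in the PH at 4 months was -0.04 (95% interval -0.18 to 0.10).

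*Stat3* (chr11:100775924-100830450, minus strand), the transcription factor of the pathway, was the member with the clearest separation between groups. In the PH, the 4 intact libraries measured 2131, 2232, 2421 and 2381. The 14-day libraries ran from 2386 to 3201 with a median of 2595, and the 4-month libraries measured 2576 to 3192 with a median of 2800. All 6 libraries at 4 months, and 5 of 6 at 14 days, lay above every intact library. *Stat3* was the 1 member of 10 whose groups did not overlap at 4 months in the PH, where 0.555% of all genes tested were without overlap and higher and 0.395% without overlap and lower. The difference at 4 months was 0.30 (SE 0.09, 95% interval 0.11 to 0.48, limma adjusted *P* = 0.529), and at 14 days it was 0.23 (SE 0.09, 95% interval 0.03 to 0.42, limma adjusted *P* = 1.00). Both comparisons use the same 4 intact libraries. Between 14 days and 4 months the PH difference was 0.07 (95% interval -0.11 to 0.25).

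Within each batch the intact libraries were also the lowest. In batch 1, the intact PH libraries measured 2131 and 2232, the 14-day libraries 2386, 2510 and 2459, and the 4-month libraries 2761, 2588 and 2576. In batch 2, the intact libraries measured 2421 and 2381, the 14-day libraries 2956, 3201 and 2681, and the 4-month libraries 2840, 3192 and 2933. Thus every OVX library exceeded the intact libraries of its own batch, while the batches themselves differed, batch 2 being higher by 0.19 on the log2 scale. The difference at 4 months was 0.28 in batch 1 alone (SE 0.10) and 0.31 in batch 2 alone (SE 0.14), and the difference at 14 days was 0.17 and 0.29. With SV1 and batch both in the model the 4-month difference was 0.30 (SE 0.06, limma adjusted *P* = 0.0733), and without 14-day replicate 5 it was 0.27 (SE 0.06, adjusted *P* = 0.152). Over all alternatives and left-out libraries it ranged from 0.23 to 0.33, with an adjusted *P* of at least 0.0733.

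*Stat3* groups of the POA overlapped. The intact libraries measured 2103, 2507, 2751, 2861 and 2860, the 14-day libraries 2218 to 3428 (median 2549) and the 4-month libraries 2329 to 3257 (median 2631), and the differences from intact were 0.05 (95% interval -0.10 to 0.20) and 0.09 (-0.06 to 0.24). In a separate fit of all 33 libraries, with its own SV1, the PH difference minus the POA difference was 0.25 at 14 days (SE 0.14, limma adjusted *P* = 1.00). At 4 months it was 0.23 (SE 0.14, limma adjusted *P* = 1.00). Because SV1 differs, these values are not the gaps between the differences of the regional fits given above. A difference between the regions was therefore not shown for *Stat3*. None of the 10 members was called in that test at either time, where 0.00452% of all genes were called at 14 days and 0.00903% at 4 months.

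**Figure D3:**
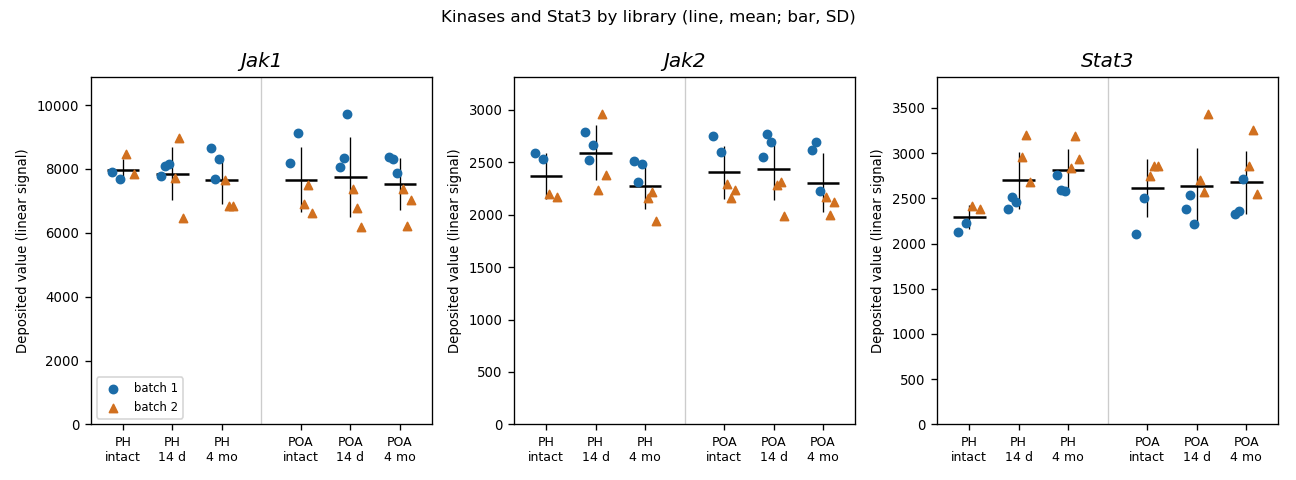
Deposited values (y axis, linear signal from 0) of *Jak1*, *Jak2* and *Stat3* in each library by region and group (x axis), with circles for batch 1, triangles for batch 2, lines for group means and bars for SD. All 4-month PH libraries lie above the 4 intact PH libraries for *Stat3*, and in the POA the batches separate within each group for *Jak1* and *Jak2*.

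Marker sums of other cell types also differed in the same PH comparison, and in part in the POA. At 4 months, the summed signal of 7 microglial markers was 13232 to 15242 against 11902 to 13183 in the intact PH, that of 7 endothelial markers 9856 to 13063 against 8380 to 8916, and that of 5 red cell genes 12094 to 37251 against 6507 to 8426. None of the 7 microglial or the 7 endothelial markers was called singly, and 1 of the 5 red cell genes was, beside 0.0318% of all genes. All 7 microglial markers and all 5 red cell genes were higher, beside 47.2% of all genes. Of the endothelial markers, 5 were higher and 2 lower. The summed signal of 7 astrocyte markers overlapped, with 181163 to 225631 against 176132 to 217308. That of 6 mural markers overlapped too, with 7165 to 10839 against 7465 to 8104. In the POA, where the *Stat3* groups overlapped, the microglial sum was 13030 to 15363 at 4 months against 12101 to 13229 in the intact group. The endothelial sum there was 8607 to 12193 against 8370 to 9374, and the red cell sum 9569 to 22657 against 7050 to 16431. Across the 16 PH libraries, log2 *Stat3* and the log2 sums had a Pearson *r* of 0.48 for microglia and 0.51 for endothelial cells. It was 0.51 for mural cells, 0.52 for astrocytes and 0.31 for red cells. Across the 17 POA libraries the values were -0.06 for microglia, -0.17 for endothelial cells, -0.12 for mural cells, -0.50 for astrocytes and 0.34 for red cells. These are a description over libraries that share groups and batches. The part of these cell types in the *Stat3* values was not tested, and in bulk tissue more cells of a type and more RNA per cell cannot be told apart.

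The 4 remaining genes are induced by cytokine signals. SOCS3, SOCS2 and CIS (encoded by *Cish*) belong to the SOCS family of feedback inhibitors, SOCS3 acting on gp130 and the leptin receptor, and SOCS2 and CIS mainly on growth hormone and other STAT5-linked receptors, while BCL3 is an atypical IκB protein that works with NF-κB subunits in the nucleus. STAT proteins bind the palindrome TTCNNNGAA. RefSeq promoter windows, from 250 bases before to 50 after the gene start RefSeq gives on GRCm38.p6, were matched for 9 of the 10 members in 10 windows, *Socs2* having no entry. The letters TTCNNNGAA, which read the same way on both strands, were found in the windows of *Socs3* and *Cish* and in 8.3% of 32851 windows. The same palindrome with 1 more spacer base was found in 0 of the members' windows and in 6.95% of all windows. Both stretches are shown since they hold the matches of *Socs3* and *Cish*, found in 2 of the 10 windows, with the matches in capitals. The *Socs3* stretch is 30 bases (chr11:117969501-117969530, minus strand, GRCm38.p6), with its match starting 154 bases before the RefSeq start. The *Cish* stretch is 30 bases around the RefSeq start (chr9:107296654-107296683, plus strand, GRCm38.p6), with matches that begin at bases 1 and 12, counted from 1 at that start. GENCODE M39, on GRCm39, starts both genes farther upstream, so that the *Socs3* stretch begins 542 bases and the *Cish* stretch 628 bases past its gene starts. Where the stretches lie within annotated transcripts was not examined.
Socs3: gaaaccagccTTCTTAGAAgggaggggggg
Cish: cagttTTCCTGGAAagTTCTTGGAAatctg
A match describes letters and shows no binding in these tissues.

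*Socs3* (chr11:117856905-117860898, minus strand), a direct target of STAT3 in cytokine-treated cells, measured 110, 111, 102 and 153 in the intact PH. At 14 days the PH libraries ran from 74.4 to 127 with a median of 122, and at 4 months from 126 to 174 with a median of 140. All but 1 of the 4-month libraries exceeded every 14-day library, but the highest intact library exceeded 4 of the 6 libraries at 4 months. The PH difference at 4 months was 0.26 (95% interval -0.02 to 0.54), and between 14 days and 4 months it was 0.22 (-0.04 to 0.49). In the POA, *Socs3* measured 151, 94.7, 119, 191 and 127 in the intact group, 83.4 to 161 (median 126) at 14 days and 100 to 204 (median 117) at 4 months. These groups overlapped throughout, and the differences versus intact were -0.12 (95% interval -0.56 to 0.31) and -0.04 (-0.47 to 0.40). The low PH library, at 74.4, was 14-day replicate 5.

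*Cish* (chr9:107173225-107179983, plus strand) measured 274, 221, 291 and 340 in the intact PH, 162 to 315 (median 234) at 14 days and 186 to 442 (median 235) at 4 months. For the POA, the intact libraries measured 266, 355, 266, 324 and 262, the 14-day libraries 173 to 315 (median 264) and the 4-month libraries 189 to 339 (median 243). The medians after OVX lay below the intact medians in both regions, and in the POA 3 of 6 libraries at 14 days and 4 of 6 at 4 months were below every intact one. The groups still overlapped. The differences versus intact were -0.19 and -0.18 (PH) and -0.22 and -0.20 (POA), with standard errors between 0.16 and 0.18 and all 95% intervals including 0. The 2 times share their intact libraries within each region.

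*Socs2* (chr10:95219523-95253929, minus strand) measured 829.1, 640, 825 and 846 in the intact PH, 628 to 1000 (median 711) at 14 days and 482 to 791 (median 602) at 4 months. At 4 months 4 of 6 PH libraries were below every intact one, and the other 2 lay above the low intact library at 640. The difference was -0.30 (SE 0.12, 95% interval -0.55 to -0.05, limma adjusted *P* = 0.728, n = 6 versus 4). It was -0.63 in batch 2 alone and -0.03 in batch 1 alone, and -0.40 without the low intact library, replicate 2. Across the 16 PH libraries, log2 *Socs2* and the log2 marker sums had *r* = -0.68 for microglia, 0.65 for neurons and 0.57 for 6 thalamus markers. The PH library with the highest neuron sum, 14-day replicate 5, also held the highest PH *Socs2* value, 1000. In the 17 POA libraries *r* was -0.22 for microglia, 0.18 for neurons and 0.59 for the thalamus markers. These are a description over libraries that share groups and batches, and the part of these cell types in the *Socs2* values was not tested. In the POA, *Socs2* measured 695, 835, 624, 764 and 427 in the intact group, 490 to 845 (median 716) at 14 days and 468 to 676 (median 649) at 4 months. All 4-month POA libraries lay within the intact range, and the difference was -0.13 (95% interval -0.48 to 0.22). The test of the PH against the POA gave -0.16 at 4 months (SE 0.21, limma adjusted *P* = 1.00).

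*Bcl3* (chr7:19541553-19557570, minus strand) was measured near the floor, so its fold changes are compressed. In the PH it measured 89.3, 49.0, 41.5 and 64.2 in the intact group, 42.6 to 70.3 (median 56.7) at 14 days and 45.2 to 112 (median 63.5) at 4 months, and the groups overlapped. In the POA, the intact libraries measured 48.0, 51.9, 66.1, 49.4 and 60.1, the 14-day libraries 59.9 to 75.8 (median 63.6) and the 4-month libraries 54.4 to 121 (median 75.1). At 4 months 4 of 6 POA libraries lay above every intact one, and the other 2 lay within the intact range. The difference was 0.52 (SE 0.17, 95% interval 0.18 to 0.87, limma adjusted *P* = 0.342, n = 6 versus 5), and 0.37 without 4-month replicate 6, the highest library. Batch 1 alone gave 0.61 and batch 2 alone 0.47. With the floor subtracted before the log it was 0.78. At 14 days the POA difference was 0.25 (95% interval -0.10 to 0.60), and the test of the PH against the POA at 4 months gave -0.38 (SE 0.28, limma adjusted *P* = 1.00). The summed microglial signal in the POA was 13030 to 15363 at 4 months against 12101 to 13229 in the intact group. Of the 7 markers 1 was called, beside 0.0936% of all genes. Log2 *Bcl3* and the log2 microglial sum had *r* = 0.71 over the 17 POA libraries and 0.38 over the 16 PH libraries. The part of microglia in the *Bcl3* values was not tested.

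**Figure D4:**
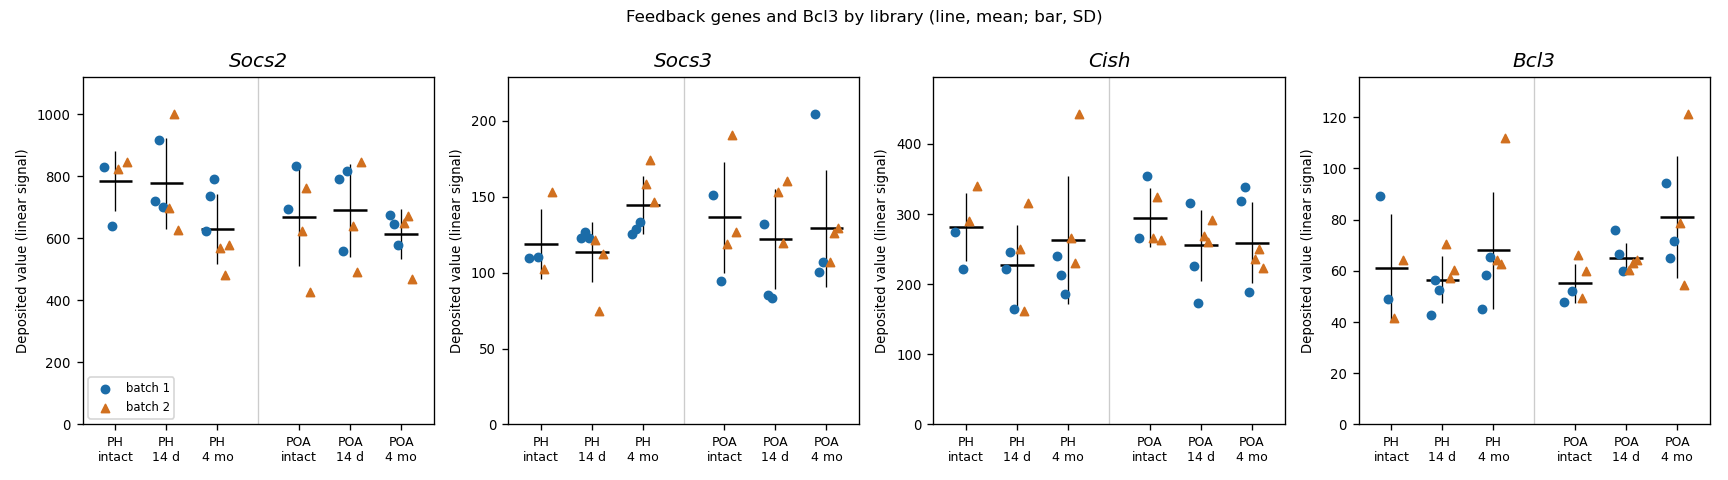
Deposited values (y axis, linear signal from 0) of *Socs2*, *Socs3*, *Cish* and *Bcl3* in each library by region and group (x axis), with circles for batch 1, triangles for batch 2, lines for group means and bars for SD. Intact and OVX libraries overlap in every panel, with the 74.4 of *Socs3* in a 14-day PH library and the 121 of *Bcl3* in a 4-month POA library standing at the edges of their groups.

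The batches differed for several members in the same direction in all 3 groups of a region. In the POA, log2 values in batch 2 minus batch 1 averaged -0.31 for *Jak1* (range over groups -0.36 to -0.25), -0.27 for *Jak2* (-0.28 to -0.25) and 0.27 for *Stat3* (0.22 to 0.30). In the PH they averaged -0.18 for *Jak2* (-0.23 to -0.08), 0.19 for *Stat3* (0.14 to 0.26) and 0.34 for *Cish* (0.17 to 0.50). Thus *Jak2* and *Stat3* stood in opposite order between the batches of both regions, in the POA by amounts larger than their differences after OVX. Across the 17 POA libraries, *Jak2* and *Stat3* had *r* = -0.88 and *Jak1* and *Jak2* *r* = 0.85, as a description over libraries that share batch and group. Log2 sums of 6 neuron markers in the POA had *r* = 0.92 with *Jak1*, 0.86 with *Jak2* and -0.80 with *Stat3*, beside 0.63, 0.66 and 0.21 in the 16 PH libraries. The PH library with the highest neuron sum, 14-day replicate 5, also held the highest PH values of *Jak1* (8967) and *Jak2* (2956). The part of neuron content or batch in these values was not tested.

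**Figure D5:**
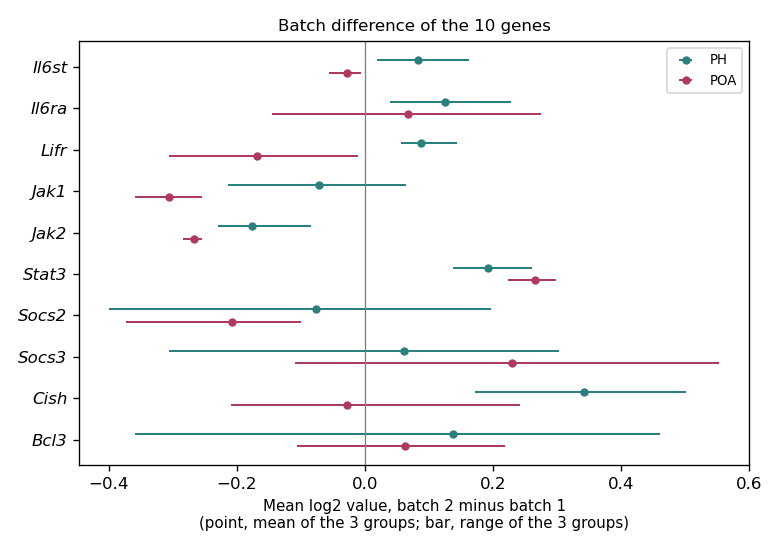
Mean log2 value in batch 2 minus batch 1 (x axis) for the 10 genes (y axis), with points for the mean over the 3 groups of a region, bars for the range over the 3 groups and color for the region. In the POA, *Jak1* at -0.31 and *Jak2* at -0.27 lie on the opposite side of 0 from *Stat3* at 0.27.

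The rest of the pathway was taken from 7 lists of 76 genes. The lists were chosen with earlier results of these data known, so their counts beside the shares of all genes are a description. None of the genes tested, 68 for the PH and 69 for the POA, was called in any comparison. At an unadjusted *P* under 0.05, 8 were higher and 0 lower in the PH at 4 months, beside 2.95% higher and 3.12% lower of all genes, and 7 were higher and 3 lower in the POA at 4 months, beside 4.1% and 4.4%. At 14 days there were 1 higher and 1 lower in the PH (1.57% and 1.47% of all genes) and 3 higher and 6 lower in the POA (2.84% and 3.3%).

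Some of the cytokine genes lay at the floor. Of 12 ligand genes, 8 could be tested and 0 were called. *Il6*, *Osm* and *Il27* were among the ligand genes not tested, since too few libraries reached the limit. They lay between 21.2 and 49.0 in all libraries, close to the floor. *Clcf1*, a gp130 cytokine that signals through the CNTF receptor, had the smallest *P* of the list in the POA at 4 months, with 47.9 to 95.2 against 48.4 to 77.0 and a difference of 0.36 (SE 0.13, limma adjusted *P* = 0.439). These groups overlapped. Among the other gp130-linked receptors, 5 of 6 were tested and 0 called. *Osmr*, the signaling subunit for oncostatin M, measured 159 to 216 in the intact POA, 228 to 255 at 14 days and 220 to 311 at 4 months, so that all OVX libraries of the POA exceeded every intact one. Its differences were 0.29 (SE 0.10, limma adjusted *P* = 0.799) and 0.40 (SE 0.10, limma adjusted *P* = 0.171) by limma. Without overlap and higher in the POA were 0.267% of all genes at 14 days and 0.412% of all genes after 4 months. *Il11ra1*, the receptor subunit for IL11, differed by 0.26 in the PH at 4 months (SE 0.12, limma adjusted *P* = 0.806), at 614 to 1073 against 631 to 736.

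Among 8 other cytokine and hormone receptors that use JAK2, 7 were tested and 0 called. *Lepr*, the leptin receptor, measured 222 to 344 in the intact PH, 251 to 419 at 14 days and 197 to 328 at 4 months, with overlapping groups. Its differences in the PH were 0.35 at 14 days versus intact (SE 0.17, limma adjusted *P* = 1.00) and -0.36 at 4 months versus 14 days (SE 0.15, limma adjusted *P* = 1.00). *Csf3r*, the receptor for G-CSF, measured 145 to 334 in the POA at 4 months against 122 to 245 in the intact group (difference 0.43, SE 0.15, limma adjusted *P* = 0.387). Of 8 other JAK and STAT genes 0 were called.

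Of 13 other inhibitors, which include further SOCS, PIAS and phosphatase genes, 0 were called. Their median log2 fold changes versus intact were -0.07 and -0.09 (PH) and -0.05 and -0.06 (POA), beside medians of all genes from -0.01 to 0.00, and at 4 months 10 of the 13 were below 0 in each region. *Socs7* had the smallest *P* in the POA at 4 months (difference -0.16, SE 0.06, limma adjusted *P* = 0.414), and *Socs6* in the PH at 14 days (-0.25, SE 0.10, limma adjusted *P* = 1.00).

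Targets of STAT3 held the smallest *P* of the whole pathway. Of 22 listed, the PH fit held 20 and the POA fit 21, and 0 were called. At an unadjusted *P* under 0.05, 7 were higher and 0 lower in the PH at 4 months, beside 2.95% and 3.12% of all genes, and 3 were higher and 1 lower in the POA at 4 months, beside 4.1% and 4.4%. At 14 days 0 were higher and 0 lower in the PH, while 1 was higher and 4 were lower in the POA, beside 2.84% and 3.3% of all genes. At 4 months the list had a median of 0.12 (PH) and 0.05 (POA), and at 14 days a median of 0.02 in each region. *Serpina3n*, a protease inhibitor of reactive astrocytes, measured 792 to 996 in the intact PH, 814 to 1089 at 14 days and 1001 to 1689 at 4 months. All 6 libraries at 4 months exceeded every intact one, where 0.555% of all genes tested were higher without overlap. The *Serpina3n* difference was 0.70 (SE 0.13, limma adjusted *P* = 0.0841). In the POA it measured 927 to 1246 in the intact group and 950 to 1304 at 4 months, which overlap. *Cebpd*, a transcription factor of the acute-phase response, had the smallest *P* of the list in the POA at 4 months, at 95.9 to 178 against 104 to 146 (difference 0.38, SE 0.12, limma adjusted *P* = 0.351). Of 7 partners of BCL3 in NF-κB signaling 0 were called, and *Nfkbiz*, an atypical IκB relative of BCL3, measured 161 to 212 in the POA at 4 months against 130 to 161 (difference 0.35, SE 0.12, limma adjusted *P* = 0.361), with 5 of 6 libraries above every intact one.

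The genes whose values followed *Stat3*, *Socs3* and *Cish* most closely were ranked over 15889 protein-coding genes by the smaller of the Pearson *r* in the 16 PH and the 17 POA libraries. For *Stat3* they were *Bicra* (0.82), *Crtc1*, *Tbkbp1*, *Zfp362* and *Scap* (0.74). For *Socs3* they were *Ptges* (0.66), *Sipa1*, *Adamts2* and *Slc22a8* (0.64), and for *Cish* they were *Acaca* (0.56), *Gprc5c*, *Efna4*, *Zc3hc1* and *Bmper* (0.51). The points share batches, groups and the normalization of their library, and the values for *Socs3* and *Cish* were lower than those for *Stat3*.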

How the data were processed

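The authors made stranded mRNA libraries (KAPA) from flash-frozen tissue, pseudoaligned reads with kallisto (mm39, GENCODE M30) and used tximport, DESeq2 and smartSVA. The deposited table holds normalized signal on a linear scale, not counts, and the step that made it is not given in the sources used here. Whether the values were variance-stabilized or had a component removed before deposit is not known, and the fold changes and a newly fitted SV1 would depend on it. Read depth is unknown and no counting interval is given. Of 42824 entries, 1259 carry no name and were not used, and every column matched a sample (0 exceptions).

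Testing required a value of at least 2 times the floor (mean of the 100 lowest entries) in 4 PH or 5 POA libraries, which left 21998 and 21366 genes, and 22141 in the fit of both regions. Log2 values were fitted with limma 3.58.1 (R 4.3.3; trend, robust) with the 3 groups of each region together and SV1, estimated by iteratively reweighted surrogate variable analysis rewritten in base R (5 rounds). *P* values were adjusted by Benjamini-Hochberg, with calls at 0.05. Regions were compared as an interaction in 1 fit. The fits were tested on simulated data with log2 changes of 1 and 2 in either direction. These are larger than any member's difference, and smaller changes were not simulated. Levels were not compared between genes, since values are not per length. Levels were also not compared between regions.

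Full statistics were given for members at an unadjusted *P* under 0.05, and for other pathway genes the 1 with the smallest *P* per list in a comparison. For some genes that this rule names, results are not reported here. Members and lists were chosen with earlier results of these data known. Alternatives were SV1 with batch, batch without SV1, no covariate, a block for the replicate number, a fit of the compared groups only, each batch alone, no filter, a pseudocount of 10, the floor subtracted, limma without trend, and each library left out. Gene positions, on GRCm39, are from GENCODE M39.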

Additional observations from a re-analysis of the deposited data

Results flagged for a closer look

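In each of the 6 groups, the highest and lowest library of each of the 10 genes was compared with its neighbors by Dixon's test, and 3 of 60 sets of values had a library far from the others, which is about the 1 in 20 that chance gives. *Socs2* in the intact PH was 640 in replicate 2, with the next library at 825. *Socs3* in the PH at 14 days was 74.4 in replicate 5, with the next at 112, and this is the library that also stood apart in SV1 and in its neuron markers. *Socs3* in the POA at 4 months was 204 in replicate 1, with the next at 130. No difference between the PH and the POA in the change after OVX was called for the 10 genes.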

How the results depend on the processing

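Under 11 alternatives and with each library left out, 0 of the 10 genes were called in every comparison, and the 6 differences given in full kept their sign. At 4 months versus intact in the PH, *Stat3* ranged from 0.23 to 0.31 over the alternatives and from 0.26 to 0.33 with a library left out, and *Socs2* from -0.63 to -0.03 and from -0.40 to -0.23. At 14 days, *Stat3* in the PH ranged from 0.17 to 0.29 and from 0.18 to 0.26, and *Il6ra* in the POA from 0.04 to 0.46 and from 0.18 to 0.37. At 4 months in the POA, *Jak2* ranged from -0.13 to -0.06 and from -0.13 to -0.09, and *Bcl3* from 0.46 to 0.78 and from 0.37 to 0.66. With the replicate block 0 members were called, and *Stat3* in the PH at 4 months was 0.23 (limma adjusted *P* = 0.592). The labels give groups the same replicate numbers, and same-numbered libraries deviated together at more than 0.1 in 9 of 14 PH pairs and 14 of 16 POA pairs. The POA pairs over 0.1 were the 14 within a batch, and the other 2 joined both batches. Since not every pair passed, and 6 of 16 PH and 5 of 17 POA libraries correlated best with their own number, the numbers were not taken as pairs. The number of all genes called also depended on the model: in the PH at 4 months it was 7, and 0 to 14 otherwise, and in the POA at 4 months 20, and 0 to 37 otherwise. Depth is unknown, so how far it limits weak genes such as *Bcl3* could not be measured.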

Other observations

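Immediate early genes, which neurons induce on activation and of which *Junb* and *Fos* are also STAT3 targets, were followed as a list of 10. In the POA 3 of the 10 were called at 4 months versus intact, where 0.0936% of all genes were called, and 3 at 4 months versus 14 days, where 0.0281% were. *Btg2*, an antiproliferative early gene, rose by 0.89 versus intact (limma adjusted *P* = 0.00192) and by 0.95 versus 14 days (adjusted *P* = 0.000592). At an unadjusted *P* under 0.05 in the POA, 4 were higher and 2 lower at 4 months versus intact, beside 4.1% and 4.4% of all genes, and 0 were higher and 4 lower at 14 days versus intact, beside 2.84% and 3.3%. At 4 months versus 14 days 8 were higher and 0 lower, beside 5.11% of all genes in either direction. The same 14-day libraries are the reference of the comparison with 4 months. For the PH, 0 of the 10 were called at 4 months versus intact, with 4 higher and 0 lower at an unadjusted *P* under 0.05, beside 2.95% and 3.12% of all genes. At 4 months versus 14 days in the PH 0 were called, beside 0.00909% of all genes. At an unadjusted *P* under 0.05, 6 were higher and 0 lower there, beside 4.09% of all genes in either direction. *Btg2* had the smallest *P* of the list in that comparison (difference 0.64, limma adjusted *P* = 0.213).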
